A study of Mus musculus with 23 samples.

Results

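The comparison is between 2 mouse embryonic stem cell lines that differ in their labelled genotype, E14 (labelled wt) and E99 (labelled +/-), in cells that received no active SRF construct. Arrays were taken by label: every array of these lines transfected with the empty vector or with SRFdM-VP16, which the labels call a control. That gives 8 of the 23 arrays of the series, 4 per line, with 2 arrays per line and plasmid that carry the numbers 1 and 2. The other 15 arrays are the SRF-VP16 transfections of the same lines and all transfections of the lines E81 and E100, both labelled -/-. All cells were mouse embryonic stem cells, and total RNA was harvested 72 hours after transfection in every group. The titles spell the second line E14-99+/- on the vector arrays and E99-/+ on the others, and both spellings were taken as 1 line, E99, which is an assumption. Which gene wt, +/- and -/- refer to is not written in the labels, while the series is about SRF. E99 is 1 cell line, so the genotype and anything else that sets this clone apart from E14 cannot be told apart. The labels call the 2 arrays of a condition duplicates without saying whether they came from separate cultures, and p-values therefore cover the spread among these arrays, which may be technical.

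SRF (serum response factor) is a DNA-binding protein that recognises the CArG box and calls on partner proteins to switch genes on. With the actin-sensing partners of the MRTF family it drives genes of the actin cytoskeleton, smooth muscle and cell adhesion, and with ternary complex factors downstream of growth factor signalling it drives immediate-early genes such as Egr1 and Fos. A fusion to the VP16 activation domain makes the factor active without such partners, and the SRF-VP16 arrays hold the same lines with such a factor.

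The CArG box was looked for in the RefSeq promoter windows (GRCm38.p6, 250 bases before to 50 bases after each start, with matches counted on both strands). It was present in 487 of 27023 genes (1.8%) and in 11 of the 33 actin-cytoskeleton targets of SRF with a window (33.3%). In sets described further on it was present in 0 of 10 genes lower in E99 without overlap and in 1 of 11 higher ones. It was in 5 of 82 genes (6.1%) high mainly in the E14 arrays numbered 2. Of the genes that ran opposite ways in the 2 lines, 6 of 140 (4.29%) held it. The stretches of 170 bases before a start are shown for 4 genes picked from those with a box, with the box in capitals. Acta1 (skeletal muscle actin) is on the minus strand at chr8:123894776-123894945, and its box begins 73 bases before the start. Actc1 (cardiac actin) is at chr2:114052876-114053045, minus strand, with the box 47 bases before the start. Actg1 (cytoplasmic gamma actin) is at chr11:120348496-120348665, minus strand, with the box 90 bases before. Igf2 (an imprinted growth factor) is at chr7:142661272-142661441, minus strand, with the box 155 bases before.
Acta1: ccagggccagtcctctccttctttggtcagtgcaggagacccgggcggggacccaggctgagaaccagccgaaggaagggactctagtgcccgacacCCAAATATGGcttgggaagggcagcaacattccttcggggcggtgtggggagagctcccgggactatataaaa
Actc1: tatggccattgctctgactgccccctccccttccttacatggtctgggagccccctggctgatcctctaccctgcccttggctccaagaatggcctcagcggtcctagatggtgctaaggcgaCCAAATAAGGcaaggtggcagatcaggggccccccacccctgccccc
Actg1: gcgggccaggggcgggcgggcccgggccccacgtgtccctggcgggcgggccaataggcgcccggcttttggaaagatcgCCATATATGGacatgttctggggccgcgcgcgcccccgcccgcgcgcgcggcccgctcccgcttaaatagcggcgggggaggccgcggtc
Igf2: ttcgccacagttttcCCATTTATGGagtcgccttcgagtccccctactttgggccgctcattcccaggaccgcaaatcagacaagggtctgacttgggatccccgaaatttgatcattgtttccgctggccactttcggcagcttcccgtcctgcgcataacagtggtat
The windows of Acta2 and Tagln hold no exact match, which says only that these letters are not in this window.

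The values are probe set intensities on a linear scale, with a median per array between 91 and 179 and between 24.9% and 38.3% of probe sets at or below 0. The 8 arrays correlated with each other between 0.895 and 0.964. The closest pair joined the lines: E99 with SRFdM-VP16, array 2, and E14 with SRFdM-VP16, array 1. Embryonic stem cell markers were high in all 8 arrays: Pou5f1 lay between 19553 and 27868, Sox2 between 8827 and 20482 and Zfp42 between 5176 and 16905, and of the 11 markers only Esrrb was near background (15 to 212). Col1a2, Ttr, Hand1, Tpbpa, Mesp1 and Fabp7, markers of fibroblasts or differentiated lineages, did not exceed the floor of 58 in any of the 8 arrays. Other such markers did. Gata4 (182 to 653), Sparc, Lama1, Dab2 and Krt8 exceeded it in all 8, and Eomes and Nes in 7. Col3a1, Dcn, Lum, Fbln2, Kdr and Pax6 exceeded it in 6. The 2 E14 arrays numbered 2 stood apart from the other 6 in genes described further on, so results that rest on them are given with and without them.

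The first question was whether transcripts differed between the line with 1 allele and the line with 2, averaged over both control plasmids. With the plasmid as a block, 1 of 8352 probe sets above background (0.012%) differed at 5% false discovery rate (limma with Benjamini-Hochberg adjustment). The probe set measures Eif2s3y, a Y-linked subunit of translation initiation factor 2. E14 gave 574 and 1432 with vector and 832 and 1040 with SRFdM-VP16. E99 gave 80 and 50 with vector and -16 and -17 with SRFdM-VP16, so all E99 arrays were below all E14 arrays and 3 of the 4 were under the floor. The difference was -3.87 ± 0.40 (SE) on the log2 scale with the floor (limma adjusted p = 0.0185), which understates the change of values under the floor. Same-numbered arrays within a line deviated together, so the 4 arrays of a line are not 4 independent values. For that reason the p-values of the reported fit may be too small. With the number within lines as a block 56 probe sets were called, 52 of them lower in E99. That block takes the spread between numbers out of the error, so the 56 may be too many. The call of Eif2s3y was lost on leaving out any array but E14 vector array 1 (limma adjusted p = 0.0547 to 0.164), while the difference kept its direction, at -4.16 to -3.63. In the SRF-VP16 arrays, which this fit does not use, Eif2s3y was 877 and 484 in E14 and 49 and -5 in E99. In the 7 control-plasmid arrays of E81 and E100 it ranged from -99 to 328. Uty, a second Y-linked gene, was dim: 106, 252, 90 and 118 in E14 and -15, -67, -82 and -125 in E99 (log2 difference -1.16, not called). Kdm5d, also Y-linked, was at or below 0 in all 8 arrays, and Xist, the X-inactivation RNA, was between -103 and 57.

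No other transcript passed the threshold, although 363 probe sets had an unadjusted p below 0.05, 276 with lower values in E99 (3.3%) and 87 with higher values (1.04%). This split depends on the scaling. With quantile normalization it was 199 lower and 175 higher, and after division by the array median 135 lower and 189 higher, while the median difference over all probe sets moved from -0.08 to 0.02 and 0.10. The 4 E99 arrays lay wholly below the 4 E14 arrays in 133 of 8352 probe sets (1.59%) and wholly above them in 54 (0.647%). These shares were not tested against chance. The genes named next are, in each direction, the 12 single-gene probe sets without overlap that had the smallest p. None of them but Eif2s3y was called in the 8-array comparison, and their lack of overlap is part of the choice.

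Capn2, the catalytic subunit of the protease calpain 2, was 2099 and 2421 in E14 with vector, 1827 and 1501 with SRFdM-VP16, and 325, 530, 174 and 543 in E99. Its difference of -2.44 ± 0.36 had a limma adjusted p of 0.138. Itgb1, the beta-1 integrin chain that anchors cells to matrix, averaged 10733 ± 2600 in E14 and 4983 ± 693 in E99 (SD, n = 4 each), and a second, dimmer probe set of the gene likewise had no overlap. The group without overlap on the low side also held the growth factor Hbegf (2846 ± 352 against 1228 ± 267), the transcription regulator Tsc22d1 (10159 ± 2349 against 5077 ± 1111) and the inhibitors of differentiation Id1 (11095 ± 2841 against 3775 ± 1834) and Id2 (3602 ± 912 against 1335 ± 751). Suclg1, a subunit of succinyl-CoA ligase, averaged 3603 ± 894 in E14 and 1388 ± 603 in E99, and the co-chaperone Sugt1 12494 ± 1646 and 7554 ± 757. Wbp4, Pla2g7 and Prrx2 were at or near background in E99, with means of 58.8, 82.5 and 10 against 567, 374 and 239 in E14. On the high side, E99 exceeded E14 in Kat2b, a histone acetyltransferase (4638 ± 550 against 2667 ± 598), Uhrf1, a partner of the maintenance DNA methyltransferase (7974 ± 1808 against 4072 ± 1340), and Dnph1 (2556 ± 441 against 1323 ± 295). The mitochondrial ribosomal protein genes Mrpl2 and Mrps10 were 1.42 and 1.46 times as high in E99, and Baz2a, a chromatin remodelling subunit, 1.52 times. In Id1, Suclg1 and Uhrf1 the size of the difference depended on the array number, by the term described further on. It was -2.58, -2.23 and 0.37 among the arrays numbered 1, and -0.73, -0.68 and 1.66 among those numbered 2.

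In the SRF-VP16 arrays of the same lines the differences of these genes had the same sign, except in Hbegf, Pla2g7 and the dim Rasal3, and none was called there (limma, 0 of 8352 probe sets, 235 at unadjusted p below 0.05). Capn2 was 2862 and 2159 in E14 and 885 and 449 in E99. Kat2b was 2621 and 2030 in E14 and 3922 and 4809 in E99. Itgb1 was 10358 and 7701 in E14 and 6166 and 5719 in E99. The lines did not overlap there in Capn2, Kat2b and Itgb1. They overlapped in Tsc22d1, Id2, Pla2g7, Baz2a, Hdgfl2, Mrps10, Mrpl14, Rasal3, Zfp292 and Blnk. Capn2 also varied among the control arrays of E81 and E100, from 473 to 1933, which spans much of the gap between E14 and E99. Hbegf was 3132 and 1154 in E14 and 2703 and 2300 in E99, with overlap.

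**Figure D1:**
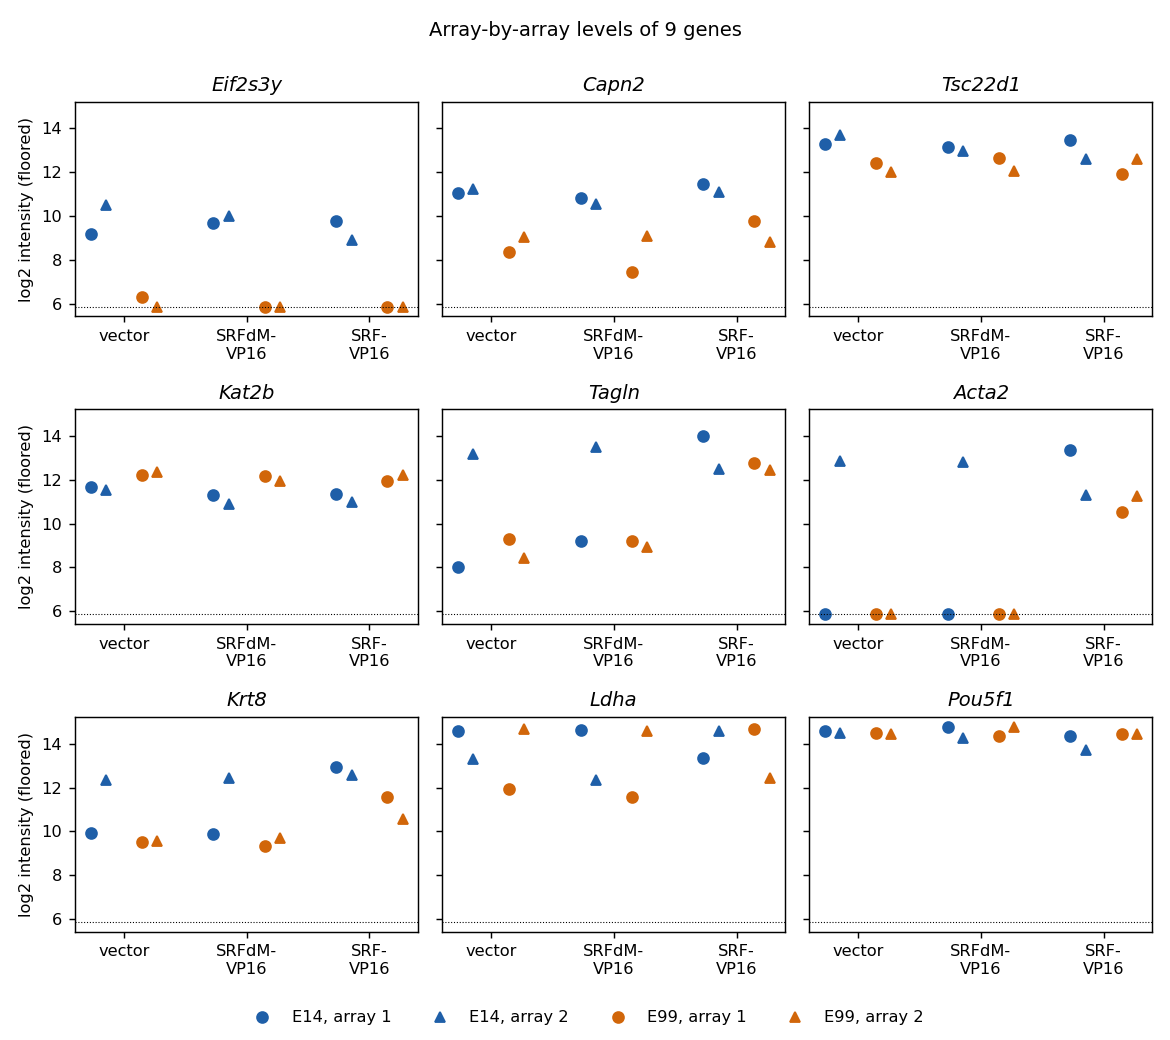
Levels of 9 genes in each E14 and E99 array, as log2 intensity with values under 58 set to that floor (dotted line), by plasmid; circles are arrays numbered 1 and triangles arrays numbered 2, with no averaging. Eif2s3y and Capn2 separate the lines under all 3 plasmids, Tagln, Acta2 and Krt8 are high among the control arrays only in the E14 arrays numbered 2, Ldha runs opposite ways in the 2 lines, and Pou5f1 is level.

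Among the transcripts that SRF is known to drive, none differed at the threshold. Of 45 actin-cytoskeleton targets of SRF 39 were measured, 8 had lower values in E99 at unadjusted p below 0.05 and none had higher values, against 198 lower and 65 higher of 6095 named genes. The median difference of the list was -0.37, against -0.07 over all named genes, and it was -0.17 after division by the array median, where all probe sets had a median of 0.10. With both E14 arrays numbered 2 left out it was -0.12, and with both E14 arrays numbered 1 left out it was -0.58. Tpm4, a tropomyosin that stabilises actin filaments, was 2442 and 2565 in E14 arrays numbered 1, 9207 and 7385 in E14 arrays numbered 2, and between 1118 and 1879 in E99. The lines did not overlap, but most of the distance came from the E14 arrays numbered 2. Actc1 was 1343, 1867, 1792 and 1737 in E14 and 936, 705, 1275 and 1329 in E99, again without overlap (log2 difference -0.70 ± 0.23, not called). Actg1 averaged 28381 ± 1891 in E14 and 22335 ± 3430 in E99, and Actb 8923 ± 3501 and 7081 ± 1836, with overlap in both. The sign of the Actb difference turned in this probe set when the E14 arrays numbered 2 were left out, while a second, dimmer Actb probe set was at -0.42 ± 0.20 on average and at -0.22 among the arrays numbered 1. Tmsb10, which binds actin monomers, was between 23543 and 30106 in E14 and between 15326 and 21937 in E99. Vinculin (Vcl), with 1702 ± 858 and 1419 ± 75.8, showed no separation, and its sign turned after division by the array median and without the E14 arrays numbered 2.

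Of 24 measured immediate-early genes none was called, 1 had higher values in E99 at unadjusted p below 0.05 and none lower. Their median difference was -0.43 on average, -0.01 among the arrays numbered 1 and -0.46 among those numbered 2. That 1 gene was Egr1, an early growth-response transcription factor, at 283, 449, 303 and 624 in E14 and 709, 755, 632 and 926 in E99, without overlap (0.93 ± 0.34, not called). In the SRF-VP16 arrays Egr1 was 2426 and 2816 in E14 and 5351 and 4199 in E99. Fos was dim, at 112, 153, 7 and 75 in E14 and 84, -32, 13 and -61 in E99, with overlap. Among 17 focal adhesion and integrin genes, with a median of -0.28, 5 had lower values in E99 at unadjusted p below 0.05 and none higher. Of all 6095 named genes 198 were lower and 65 higher at that p, a split that depends on the scaling as given above. Beside Itgb1 the 5 included Ilk, the integrin-linked kinase, and Bcar1, an adhesion scaffold. Bcar1 was 1265, 1264, 1326 and 1710 in E14 and 336, 561, 807 and 1039 in E99.

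The second question was how far the arrays numbered 2 decide the comparison. The line difference depended on the array number in 702 of 8352 probe sets (8.41%, limma line-by-number term, 3 residual degrees of freedom), 431 with a more positive difference among the arrays numbered 2 and 271 with a more negative one. Quantile normalization gave 738, split 381 and 357, and division by the array median 780, split 620 and 160. The numbers were used as labelled, and whether they mark the same thing in each line or were exchanged in some labels was not tested. An exchange within a line would leave the average difference as it is, and would change the 702 and the differences at each number. The count rests on few arrays: it fell to 4 without E99 vector array 1, 13 without E99 SRFdM-VP16 array 1, 52 without either E14 SRFdM-VP16 array, 81 without E14 vector array 1, 284 without E14 vector array 2, 480 without E99 SRFdM-VP16 array 2 and 603 without E99 vector array 2. With the spread taken from all 23 arrays 7 were called. No array repeats a line, plasmid and number. The error of the 8-array model is therefore the disagreement between plasmids within a line and number, where arrays deviated together. All calls of that model, here and further on, may for that reason be too many. In the same 8-array model E99 differed from E14 in 318 probe sets (3.81%) among the arrays numbered 1 and in 200 (2.39%) among those numbered 2, which are differences within 1 array per line and plasmid and were set up after the values had been seen.

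The dependence on number was not a matter of the E14 arrays alone. Within E14, 262 probe sets differed between arrays 2 and 1, and within E99, 129. Of the 702, 198 moved at least 2-fold in both lines and in opposite directions, 162 moved 2-fold in E14 only, 122 in E99 only, and 220 moved less than 2-fold in each. Over all probe sets the difference of array 2 from array 1 correlated at -0.38 between the lines, a description over probe sets that share 8 arrays.

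**Figure D2:**
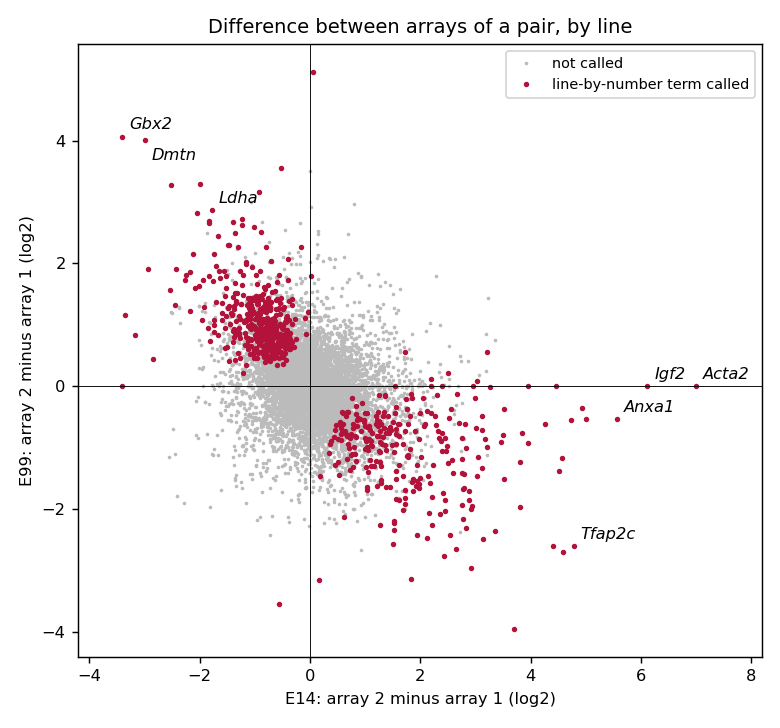
Each point is a probe set, placed by its log2 difference of array 2 from array 1 in E14 (horizontal) and in E99 (vertical), averaged over the 2 control plasmids; the 702 with a called line-by-number term are in red. Among the red points are 198 that moved at least 2-fold in opposite directions (Ldha, Gbx2, Tfap2c), 112 high in E14 arrays numbered 2 and under 2-fold in E99 (Acta2, Igf2, Anxa1), 50 low in them, 122 that moved 2-fold in E99 only and 220 under 2-fold in both.

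The transcripts high only in the E14 arrays numbered 2 include known SRF targets. Tagln (transgelin, a smooth muscle actin-binding protein) was 264 and 591 in E14 arrays numbered 1, 9417 and 11738 in those numbered 2, and 350 to 621 in the 4 E99 arrays. Acta2 (smooth muscle actin) was -242 and -52 in E14 arrays numbered 1, 7463 and 7302 in those numbered 2, and at most -22 in E99. Acta1 was 15.4 and 49, then 799 and 1007, and between -38 and 27 in E99. The E14 average of these genes therefore rests on 2 arrays, and the averaged differences were -2.02 ± 1.10, -3.50 ± 1.60 and -1.98 ± 0.93, none called. For Acta1 and Acta2 the other 6 arrays were under the floor, so the size of these differences is set by the floor. Among the arrays numbered 1 the differences were 0.62 for Tagln and 0.00 for Acta1 and Acta2.

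Other genes shared this pattern. Krt8, a simple-epithelium keratin, was 981 and 939 in E14 arrays numbered 1, 5225 and 5576 in those numbered 2 and 637 to 836 in E99. Anxa1, a membrane-binding annexin, was 20.7 and 149, then 4404 and 4341, and 147 to 278 in E99. Ccn2 (connective tissue growth factor) was 117 and 291, then 5259 and 3364, and 105 to 535 in E99. Igf2 was below 0 in E14 arrays numbered 1 and in E99, and 4127 and 3918 in E14 arrays numbered 2. All 4 were therefore high in the same 2 arrays.

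The E14 arrays numbered 2 can be set beside the E14 arrays that received SRF-VP16. Tagln was 16237 and 5805 there, Acta2 10591 and 2574, Krt8 7893 and 6117, Anxa1 4361 and 2627 and Igf2 5467 and 4684, so the control arrays numbered 2 lay between the SRF-VP16 arrays for Tagln and Acta2 and below them for Krt8 and Igf2. Acta1 and Egr1 stood further off: Acta1 was 3770 and 3498 with SRF-VP16 against 799 and 1007, and Egr1 2426 and 2816 against 449 and 624. The median level of the 39 actin-cytoskeleton targets, relative to its mean over the 8 arrays, was 0.68 and 0.33 in the E14 control arrays numbered 2, -0.02 and -0.24 in those numbered 1, -0.38 to -0.15 in E99, and 0.81 and 0.08 in E14 with SRF-VP16. The 11 stem cell markers summed to 57932 and 75483 in the E14 control arrays numbered 2, against 71992 to 90157 in the other 6. The lower sum was thus below all others and the higher one within them. Some markers of other cell types moved with the E14 control arrays numbered 2. The summed level of the 8 endoderm markers was 5238 and 7014 in the E14 arrays numbered 2 against 2524 to 3122 in the other 6, with Ttr under the floor throughout. This difference lay in Sparc, a matrix glycoprotein, at 5182 and 3893 against 916 to 1268, while Lama1, a laminin chain, was 801 and 682 against 561 to 1501 in the other 6. The summed level of the 5 trophoblast markers, nearly all Krt8, was 5481 and 5818 against 652 to 981, with Hand1 and Tpbpa under the floor. Krt7 (177 and 163) and Cdx2 (79 and 74) were dim and among the 8 arrays exceeded the floor only in these 2. The 4 neurectoderm markers summed to 780 and 885 against 103 to 512, most of it Nes. The 6 fibroblast markers on the array summed to 327 and 679 against 183 to 566, so 1 of the 2 arrays lay within the others. The 3 mesoderm markers on the array summed to 316 and 567, within the 75 to 597 of the other 6. The part of other cell types in these levels was not tested.

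Among all 6095 named genes, E99 was called higher in 66 and lower in 211 among the arrays numbered 1, and higher in 55 and lower in 108 among the arrays numbered 2, against which the counts of each list can be read. Of the 39 actin-cytoskeleton targets of SRF, 6 were lower and 2 higher among the arrays numbered 1. Among those numbered 2, 8 were lower and 0 higher, and the medians were -0.08 at number 1 and -0.55 at number 2. Of the 15 endoderm genes of the wider list, 5 were lower in E99 among the arrays numbered 2 and none among those numbered 1, with medians of -0.89 and 0.00. Col4a1, a basement-membrane collagen, was 889 and 814 in E14 arrays numbered 1, 2929 and 3369 in those numbered 2 and 347 to 612 in E99. Of 7 measured p53 targets, 3 were lower in E99 among the arrays numbered 2 and 1 higher among the arrays numbered 1, with medians of -1.49 there and -0.01 among the arrays numbered 1. Perp, a p53-induced junction protein, was 988 and 952, then 4117 and 2605 in E14, and 256 to 844 in E99. The 30 pluripotency genes had medians of 0.21 and 0.05 among the arrays numbered 2 and 1, with 2 higher and 0 lower at number 2 and 2 higher and 2 lower at number 1. Pou5f1 averaged 23621 ± 3269 in E14 and 23542 ± 2975 in E99, and Klf2, a naive-state factor, 2587 ± 930 and 4191 ± 1154 with overlap.

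The second set of transcripts ran opposite ways in the 2 lines. Ldha, which makes lactate at the end of glycolysis, was 24382 and 25500 in E14 arrays numbered 1, 10096 and 5212 in E14 arrays numbered 2, 3910 and 2987 in E99 arrays numbered 1 and 25827 and 24315 in E99 arrays numbered 2. The difference of E99 from E14 was thus -2.87 among the arrays numbered 1 and 1.79 among those numbered 2, both called, and the average over both was -0.54 ± 0.78, not called. Of 23 measured glycolysis and hypoxia genes, 7 were lower and 1 higher in E99 among the arrays numbered 1, and 5 were higher and none lower among the arrays numbered 2, with medians of -0.84 and 0.22. Over all named genes 211 were lower and 66 higher at number 1, and 55 higher and 108 lower at number 2. The 1 that was higher among the arrays numbered 1 was Ldhb, the other lactate dehydrogenase chain, at 1579 and 958 in E14 and 7735 and 7817 in E99. The 11 cholesterol synthesis genes had medians of -0.97 and 1.07, with 2 lower among the arrays numbered 1 and 1 higher among those numbered 2. Fdft1, squalene synthase, was 2492 and 1885 in E14 arrays numbered 1, 1192 and 1047 in those numbered 2, 937 and 825 in E99 arrays numbered 1 and 2232 and 2228 in those numbered 2.

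The transcription factor Gbx2 had the largest positive term of the model (7.48). It was 4923 and 4315 in E14 arrays numbered 1, 421 and 443 in those numbered 2, 95 and 148 in E99 arrays numbered 1 and 1680 and 2345 in those numbered 2. The reverse order was seen in Tfap2c, a trophoblast and germ-cell transcription factor, at -81.8 and -208, then 1361 and 1855 in E14, and at 2929 and 2326, then 828 and 222 in E99. Napsa, an aspartic protease, followed the same order as Tfap2c, with 121 and 39, then 911 and 1305 in E14, and 5131 and 4021, then 1484 and 6 in E99. The order of the numbers can be followed in the other arrays of the series. With control plasmids Ldha was 22699 and 24357 in E81 arrays numbered 1 and 9457 and 6055 in those numbered 2, and 25237 and 7877 in E100 with SRFdM-VP16, the order seen in E14. The remaining control array, E100 vector array 2, had 23954 for Ldha and 3228 for Gbx2, as in E14 arrays numbered 1. In the SRF-VP16 arrays of E14 and E99 the order was turned round: Ldha was 10315 in array 1 and 24714 in array 2 of E14, and 25790 and 5497 in E99, while Gbx2 was 374 and 3589 in E14 and 1323 and 95 in E99. Of 29 cell cycle genes, 6 had a called positive term and none a negative one, against 360 positive and 222 negative of 6095 named genes, a split that depends on the scaling as given above. The list had medians of -0.27 among the arrays numbered 1 and 0.48 among those numbered 2.

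**Figure D3:**
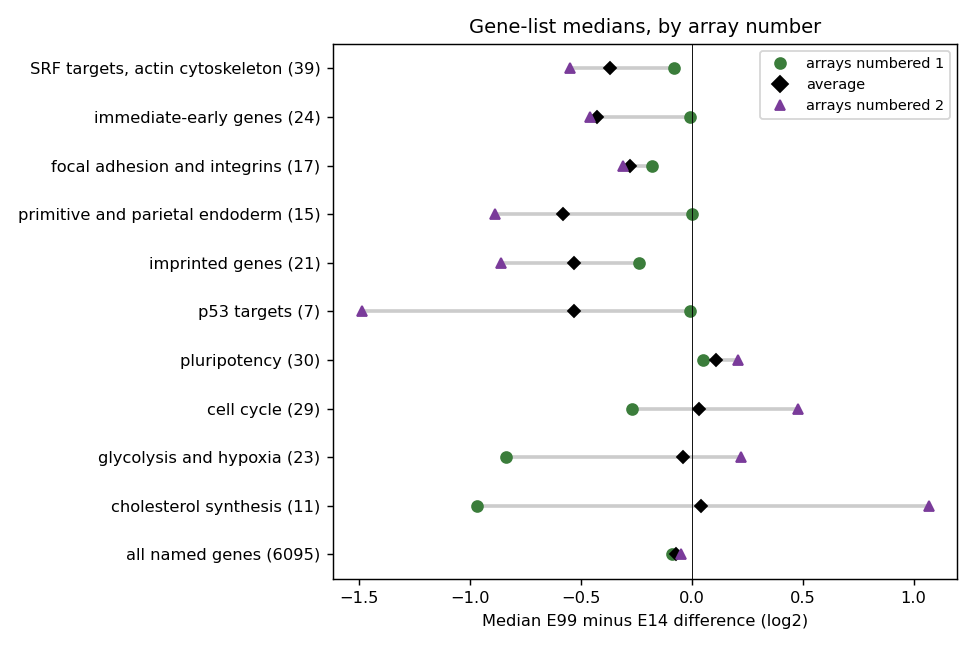
Median log2 difference of E99 from E14 for 10 gene lists and all named genes (number of measured genes in brackets), among the arrays numbered 1 (circles), on average (diamonds) and among the arrays numbered 2 (triangles). Glycolysis and cholesterol synthesis lie on opposite sides of 0 at the 2 numbers. The medians of SRF targets, endoderm and p53 targets lie near 0 among the arrays numbered 1 and below it among the arrays numbered 2. All named genes stay between -0.09 and -0.05. Single genes differed also where a median is near 0: 6 of 39 SRF targets were called lower and 2 higher among the arrays numbered 1.

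Whether the line difference depends on which control plasmid was used gave no called probe set (limma line-by-plasmid term, 0 of 8352, 323 at unadjusted p below 0.05; 2 with the spread of all 23 arrays). The median of the SRF targets was -0.50 with vector and -0.29 with SRFdM-VP16.

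Several of the named genes without overlap lie near each other on a chromosome, which was noticed after the values had been seen. The 3902 named genes with a mean above 301 were put in order along the 20 chromosomes and cut into 155 bins of 25 genes, with a shorter or longer last bin, and the median difference of each bin was set against the -0.05 of all these genes. Of the bins 153 lay between -0.20 and 0.20, and 1 bin lay at each end outside that range. Both bins were picked as the extremes of these values, so their place is a description with no test, and neighbouring bins did not share it.

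The lowest bin, at -0.60, was the last of chromosome 14, 34 genes from Ppp2r2a to Zic2. In it 30 genes had lower values in E99 and 4 higher. In 7 all E99 arrays lay below all E14 arrays, against 96 of 6095 named genes of any brightness. Such genes were not particular to this bin: 1 on chromosome 6 (Znrf2 to Elmod3, at -0.19) held 6 among 25. The chromosome 14 bin was chosen by these differences, so such counts follow in part from the choice. Its members include Wbp4, Tsc22d1 and Sugt1 from above, the mitochondrial succinyl-CoA ligase subunit Sucla2 (1942 ± 522 in E14, 1004 ± 118 in E99), the endosomal sorting protein Chmp7 (2130 ± 467, 1250 ± 198), the nuclear transport receptor Xpo7 (6751 ± 1244, 4278 ± 690) and the pluripotency factor Klf5 (12656 ± 827, 8392 ± 2630). Tpt1, another member, overlapped between the lines (28876 ± 2842, 29972 ± 3314). The bin lay at -0.67 among the arrays numbered 1 and at -0.49 among those numbered 2. In the SRF-VP16 arrays, which had no part in the choice, it lay at -0.43, below all 153 others (-0.25 to 0.23). Relative to all genes, the median level of the bin was between 0.11 and 0.40 in the 4 E14 control arrays and between -0.28 and -0.14 in the 4 E99 arrays. It was between -0.69 and -0.09 in E81 and between -0.03 and 0.49 in E100.

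The highest bin, at 0.45, was on chromosome 17, 25 genes from Dnph1 to Nrtn. In it 17 genes had higher values in E99, 9 of them at unadjusted p below 0.05, and 8 lower ones. Of all 6095 named genes 65 were higher at that p. These counts too follow in part from the choice of the bin. Kat2b, Uhrf1, Dnph1, Mrpl2, Mrps10 and Hdgfl2 from the list of genes without overlap all lie here, as do the transcription factor subunit Taf8 (683 ± 210 in E14, 1257 ± 418 in E99) and the endosomal GTPase Rab5a (3005 ± 1053, 4558 ± 1083). It lay at 0.41 and 0.35 among the arrays numbered 1 and 2, and at 0.50 in the SRF-VP16 arrays, above all 153 others. Its level was between 0.08 and 0.29 in the 4 E99 control arrays and 0.15 in both E99 SRF-VP16 arrays, and at or below -0.12 in the E14, E81 and E100 arrays.

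**Figure D4:**
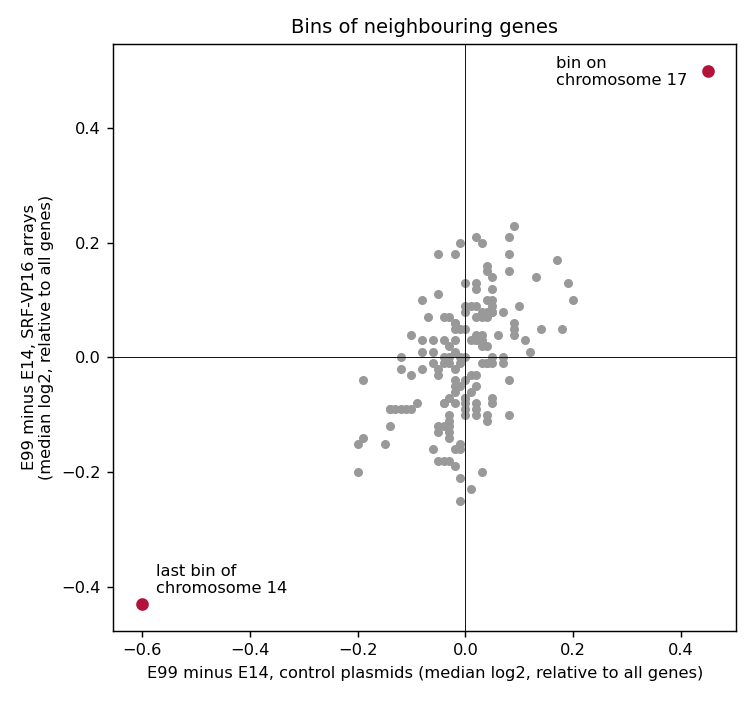
Each point is 1 of 155 bins of neighbouring genes, placed by its median E99 minus E14 log2 difference with control plasmids (horizontal) and in the SRF-VP16 arrays (vertical), both relative to all binned genes. The last bin of chromosome 14 (-0.60, -0.43) and a bin on chromosome 17 (0.45, 0.50) lie outside the cloud of the other 153.

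One whole chromosome followed the array number. The median level of the 221 binned genes of chromosome 8, relative to all genes, spanned 0.43 over the 8 arrays, the widest of the 20 chromosomes, ahead of 0.32 for the 99 genes of chromosome 18. It was 0.12 and 0.17 in E14 arrays numbered 1, -0.04 and -0.07 in E14 arrays numbered 2, -0.26 and -0.22 in E99 arrays numbered 1 and 0.13 and 0.13 in E99 arrays numbered 2. In the SRF-VP16 arrays, where Ldha and Gbx2 have the numbers turned round, so has chromosome 8: it was -0.05 and 0.18 in E14 and 0.13 and -0.19 in E99. All E81 arrays lay between 0.11 and 0.15 and all E100 arrays between -0.31 and -0.11. Of these 221 genes 57 (25.8%) were among those with a called line-by-number term, 52 of them positive, against 534 of all 3902 binned genes (13.7%), 350 of them positive. Itgb1 is on this chromosome. The line difference of the chromosome was -0.38 among the arrays numbered 1, 0.18 among those numbered 2 and -0.10 on average.

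**Figure D5:**
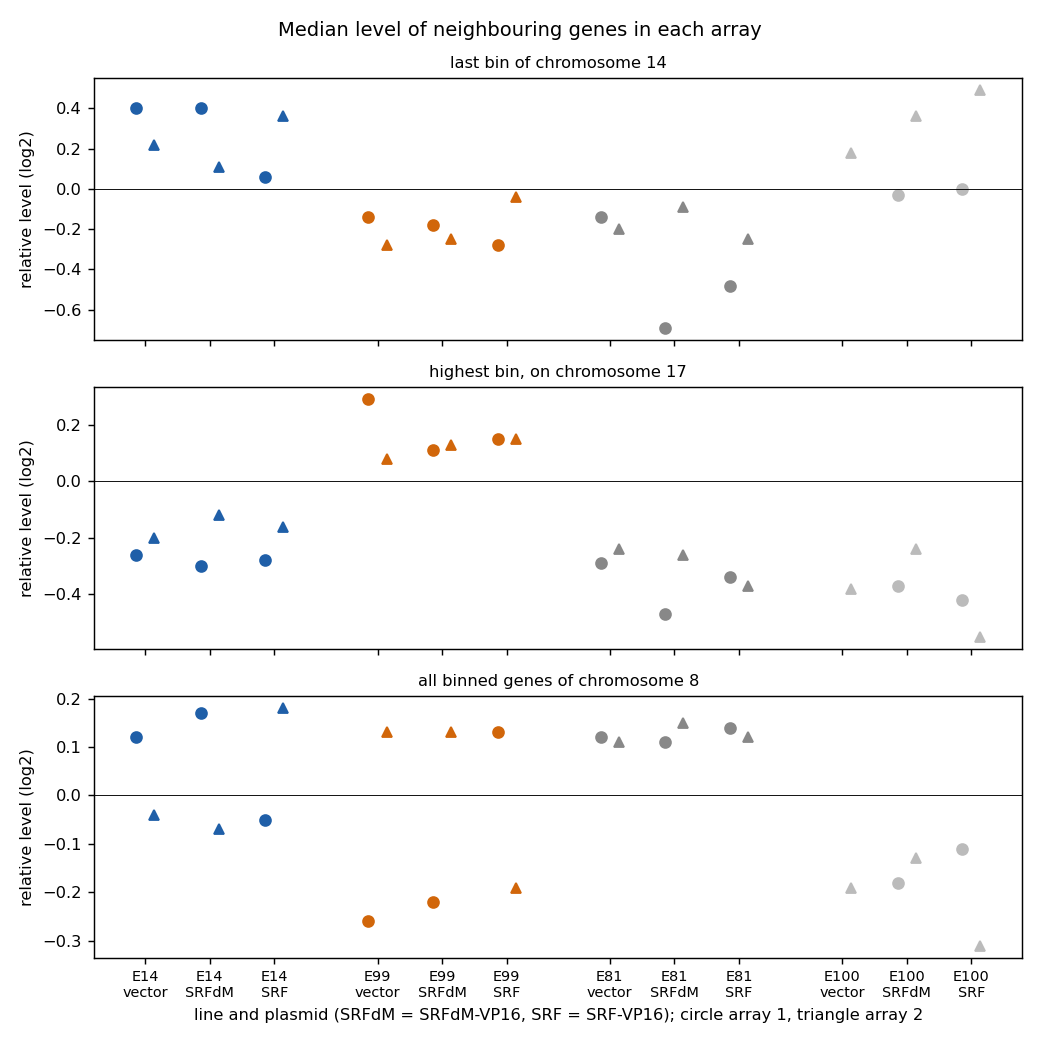
Median log2 level of the genes in the last bin of chromosome 14 (34 genes), the highest bin on chromosome 17 (25) and all of chromosome 8 (221) in each of the 23 arrays, relative to the mean of the 8 control arrays of E14 and E99 and to all binned genes. The first 2 separate E99 from E14 under every plasmid, while chromosome 8 separates the 2 arrays within each line and keeps 1 sign in all arrays of E81 and of E100.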

How the data were processed

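The values analysed were Affymetrix probe set intensities on a linear scale, as deposited by the authors for 23 arrays. The software and scaling behind them were not given in the sources used here. The 66 control probe sets among 12502 were left out. Gene names came from the platform annotation, in which 10141 probe sets had 1 symbol, 362 several and 1933 none. 2 genes are not reported here.

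Intensities were floored at 58 (the 40th percentile), because 29.1% were at or below 0, and taken to log2. Probe sets above that percentile in at least 2 of the 8 arrays were kept (8352). limma 3.58.1 in R 4.3.3 was fitted with line and plasmid, an intensity trend and Benjamini-Hochberg adjustment at 5%, with 5 residual degrees of freedom. A model of line by array number had 3. SRF-VP16 differences used the spread of all 23 arrays. The scripts were tested on simulated data. The number of arrays limits the precision.

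Same-numbered arrays of E14 and E99 deviated in opposite directions (correlation -0.21 with vector and -0.40 with SRFdM-VP16). Numbers were therefore not used as a block in the reported fit. Control arrays within a line deviated together (0.43 in E14 and 0.33 in E99, vector with SRFdM-VP16). Within each line they ran opposite to the SRF-VP16 arrays (-0.36 to -0.27). With vector, E99 ran opposite to E81 (-0.26) and E14 ran with E81 (0.28). The cause of these opposite orders was not tested. The comparison was rerun under 27 other settings and its dependence on number under 11. The crossed block, the differences at each number within the 8-array fit, the runs without 1 array of the number and plasmid terms, and the chromosome bins were added after seeing the data.

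Named genes were, per direction, the 12 without overlap with the smallest p, up to 3 of each of 25 gene lists with the smallest p, a set of SRF targets and stem cell genes, and the 8 largest number terms of each sign. Other genes, among them the members of the chromosome bins, were chosen after their values were seen. The members and lists were chosen with earlier results of these data known. The chromosome bins were first examined at positions noted in an exploratory look. Those positions did not hold once each gene had 1 probe set, and the bins described are the lowest and highest of all 155. Bin size and the brightness limit of 301 were set once.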

Additional observations from a re-analysis of the deposited data

Results flagged for a closer look

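In 19 of 235 groups of 4 arrays tested for a single outlying array (Dixon's test at 95%), 1 array stood apart. In some of these groups every other array was under the floor. They were Mrpl14, Wars, Dazl, Eif2s3y, Fos, Wbp4 and Trib3, and Prrx2 in E99. With such values set to the floor, any single array above it stands apart, so these flags cannot tell an outlying array. Chance gives about 1 in 20 groups, but the 19 cannot be set against that share, because the floor fixes part of them. Among E14 arrays with SRFdM-VP16, array 2 stood apart in Mrpl14 (149 against 33.5 to 51), Wars (98 against -65 to 45), Bcar1 (1710 against 1264 to 1326), Dazl (60 against -72 to 3.1) and Zfp42 (5176 against 12291 to 13337), and array 1 in Prrx2 (126 against 262 to 299). E14 vector array 2 stood apart in Hbegf (3373 against 2646 to 2692) and Rhoc (3486 against 2729 to 2832). E99 vector array 1 stood apart in Eif2s3y (80 against -17 to 50), Fos (84 against -61 to 13), Nes (307 against -5 to 76) and Acads (-66 against 280 to 337). E99 vector array 2 stood apart in Wbp4 (201 against -22 to 30), Prrx2 (111 against -130 to 53) and Trib3 (167 against -84 to 45). Among E99 arrays with SRFdM-VP16, array 2 stood apart in Sugt1 (8681 against 7092 to 7307) and Tbx3 (739 against 1484 to 1645), and array 1 in Bmp4 (898 against 1552 to 1597) and Cnn1 (-78 against 314 to 439).

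The effect of line differed between array numbers in 702 probe sets by the line-by-number term.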

How the results depend on the processing

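The 1 probe set called between the lines (limma) was also the count with quantile normalization, division by the array median, the stricter filter, the inverse hyperbolic sine and array number as a replicate block (1 call). The count was 0 with no filter (406 at unadjusted p below 0.05), with the floor at the 60th percentile (249), without both E14 arrays numbered 2 (445), with vector arrays only (391) and with SRFdM-VP16 arrays only (238). It was 2 without the intensity trend, 3 with all 23 arrays and 25 without both E14 arrays numbered 1. It was 56 with number within lines as a block, which takes the spread between numbers out of the error. With 1 residual degree of freedom it was 1567 from arrays numbered 1 alone and 205 from arrays numbered 2 alone. Leaving out each array gave 0 to 1. Settings added after seeing the data gave 8 with crossed numbers as a replicate block, 318 at number 1 and 200 at number 2. The cause of these changes was not tested.

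The count for the dependence on number was 7 with all 23 arrays and 4 to 603 on leaving out each array. Dependence on plasmid gave 2 calls with all 23 arrays, and the SRF-VP16 comparison gave 0 to 1 on leaving out each array.

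Signs of 8 uncalled genes with a difference other than 0.00 turned, and Pou5f1, at 0.00, ranged from -0.24 to 0.23. Without both E14 arrays numbered 2 the difference was 0.13 for Actb, 0.35 for Tagln, 0.27 for Vcl and 0.14 for Ccn1. From arrays numbered 1, alone or in the 8-array fit, it was 0.08, 0.62, 0.27 and 0.15. With vector arrays only it was 0.11 for Actb, -0.14 for Sox2 and -0.26 for Zfp42, and with SRFdM-VP16 arrays only 0.14 for Vcl. Without both E14 arrays numbered 1 it was -1.27 for Cnn1 and 0.26 for Fgf4, and from arrays numbered 2, alone or in the 8-array fit, -0.55 and 0.29. Division by the array median gave 0.05 for Vcl and 0.17 for Fgf4, quantile normalization 0.03 for Fgf4, and the higher floor -0.25 for Cnn1. Leaving out each array in turn gave -0.48 to 1.11 for Cnn1, -0.36 to 0.18 for Vcl, -0.01 to 0.30 for Sox2, -0.01 to 0.65 for Zfp42 and -0.15 to 0.09 for Fgf4. The median of the chromosome 14 bin ranged from -0.78 to -0.34 and that of the chromosome 17 bin from 0.35 to 0.59, and chromosome 8 from -0.38 to 0.18. Values near or under the floor limit every fold of a dim gene.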
